A study of Bos taurus and Ovis aries and Capra hircus with 27 samples.

Results

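The goat gene models studied here were 66 predicted tyrosine and dual-specificity phosphatases. They were chosen by the letters of their proteins and not by expression: a model was a member when its protein held the loop histidine, cysteine, any 2 residues, glycine, any 2 residues, arginine, and then serine or threonine, and when its identifier carried no copy suffix. The goat table listed 22131 models, of which 18216 had a protein in the deposited protein file and 17139 of these had no copy suffix, so that 0.385% of the proteins searched held the loop. The tables of the 3 species together listed 71943 models. The goat samples were 3 heart, 3 liver and 3 kidney libraries out of 27 of the series, all from an indigenous population of animals aged about 3 years, without any treatment or genetic change. According to the study's methods, the tissues of a population were sampled from the same unrelated adult females. Libraries of different tissues thus share animals and are not independent of each other. The comparison of tissues within a species was one of the study's questions. The study also states that the goat heart samples are part of another deposition, and a difference in handling between heart and the other tissues cannot be told apart from tissue.

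Cysteine-based protein phosphatases remove phosphate from proteins and lipids. In the loop that defines them, the cysteine attacks the phosphate and the arginine holds it. Classical members act on phosphotyrosine and oppose tyrosine kinases, and many of them are receptor-like proteins of the cell surface. Many dual-specificity phosphatases also act on phosphoserine and phosphothreonine, and MAP kinases are their best known substrates. Myotubularins act on phosphoinositide lipids. The identifiers carried no gene symbols and none could be assigned with the tables used here, so each member is given by its deposited identifier, and a role is stated only for its class. Classes rest on loop letters alone, and whether the role of a class holds for a single member was not checked.

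Levels are given in FPKM (fragments per kilobase of transcript, relative to all fragments mapped in the library), which the tables hold as log2(FPKM + 1). Tissues were compared with limma on that scale over 13634 goat models that exceeded 0.5 FPKM in at least 3 of the 9 libraries, and a model was called at an adjusted p of at most 0.05. Adding 1 makes the fold changes of low models appear smaller than they are. The summed FPKM per library lay between 574638 and 828807, and between 11663 and 12920 models exceeded 0.5 FPKM. The read depth of each library is unknown, since the tables hold no counts, although the study gives an average yield per sample. Kidney values stood higher as a whole: the median log2 fold change of all models tested was -0.55 for heart minus kidney and -0.69 for liver minus kidney, against 0.10 for heart minus liver. Dividing each library by its median ratio to the other libraries (factors of 0.774 to 0.941 in heart, 0.648 to 0.904 in liver and 1.29 to 1.52 in kidney) brought these medians to -0.04, -0.01 and -0.04. Counts for kidney are therefore given on both scales, called the deposited scale and median ratio scaling, and single members' values after scaling are added mainly where a call or a sign changed.

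The letters around the loop divided most members into 4 classes. Classical members (25) had a serine after the cysteine and another glycine just before the arginine. Dual-specificity members (15) had an alanine before the glycine and a serine before the arginine. Myotubularin members (7) had serine, aspartate, glycine, tryptophan and aspartate between the cysteine and the arginine. Loops of still other letters were found in 13 members, which are called members of no named class, and the members left are given without a class. Of these 13, 7 also had a serine just before the arginine, and the dual-specificity counts leave them out. The classes follow exact letters, so relatives of a class can lie outside it. Proteins were 94 to 2353 residues long with a median of 581.5, with a median of 909 residues for the classical and 235 residues for the dual-specificity members.

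Several features that the choice of members did not use followed the classes. They were chosen after the protein file had been seen. The tryptophan-proline-aspartate triplet, whose aspartate donates a proton during catalysis, stood within 60 residues before the loop in 24 of the 25 classical members and in no other member. Anywhere in the protein, the triplet was present in 1.28% of all proteins searched. The letters lysine, asparagine, arginine and tyrosine in a row, typical of the classical domain, were present in 22 classical members and in 0.274% of all proteins. A hydrophobic stretch of 19 residues ahead of the loop, of the kind that crosses a membrane in receptor-type phosphatases, was found in 12 members, and all 12 were classical. A tandem arrangement of 2 loops was found in 6 members, again all classical. Phenylalanine-leucine-valine-arginine, typical of the SH2 domain that binds phosphotyrosine, was present in GOAT_ENSP00000376375 and GOAT_ENSBTAP00000033929, against 0.683% of all proteins. The cluster arginine, arginine or lysine, 2 histidines, cysteine and arginine, typical of the lipid-binding FYVE domain, was present in the myotubularin members GOAT_ENSBTAP00000029454 and GOAT_ENSP00000325285, against 0.0817% of all proteins. The protein of GOAT_ENSBTAP00000017076 was the classical member without the triplet.

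Of the 66 members, 56 passed the filter on low values, 8 others had some signal, and 2 were listed at 0 in every library. On the deposited scale, the mean over 3 libraries was highest in kidney for 45 members, in heart for 14 and in liver for 5. This count was not made for all goat models, whose values also stood higher in kidney, nor after median ratio scaling. Of the 66 members, 48, 51 and 52 exceeded 0.5 FPKM in the heart libraries, 49, 51 and 49 in the liver libraries and 53, 53 and 52 in the kidney libraries. The difference between liver and kidney reached the smallest p that 3 against 3 libraries allow (exact permutation test, 2-sided, p = 0.1), heart and kidney did not (p = 0.2, exact permutation test) and neither did heart and liver (p = 0.9, exact permutation test). In every library most members exceeded this level, at 72.7% to 80.3%, and so did most goat models, at 52.7% to 58.4%. By tissue, members stood at 72.7% to 78.8% in heart, 74.2% to 77.3% in liver and 78.8% to 80.3% in kidney. All goat models were also highest in kidney, at 52.8% to 53.6%, 52.7% to 53.0% and 57.0% to 58.4% in the same order. The permutation test was not made for all models. The median level of the 66 members was 3.14 FPKM in heart, 2.90 in liver and 7.68 in kidney, and that of all goat models was 0.917, 0.856 and 1.89. Members thus stood above the typical goat model when unfiltered models were included. Here and below, values over all goat models include those without a deposited protein or with a copy suffix, which could not be members. Over the models that passed the filter, the medians were 4.12, 4.52 and 10.6 FPKM for members and 5.72, 5.80 and 10.1 for all. Together the members made up 0.0742% to 0.0877% of the summed FPKM of the heart libraries, 0.0638% to 0.0822% in liver and 0.154% to 0.194% in kidney.

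**Figure D1:**
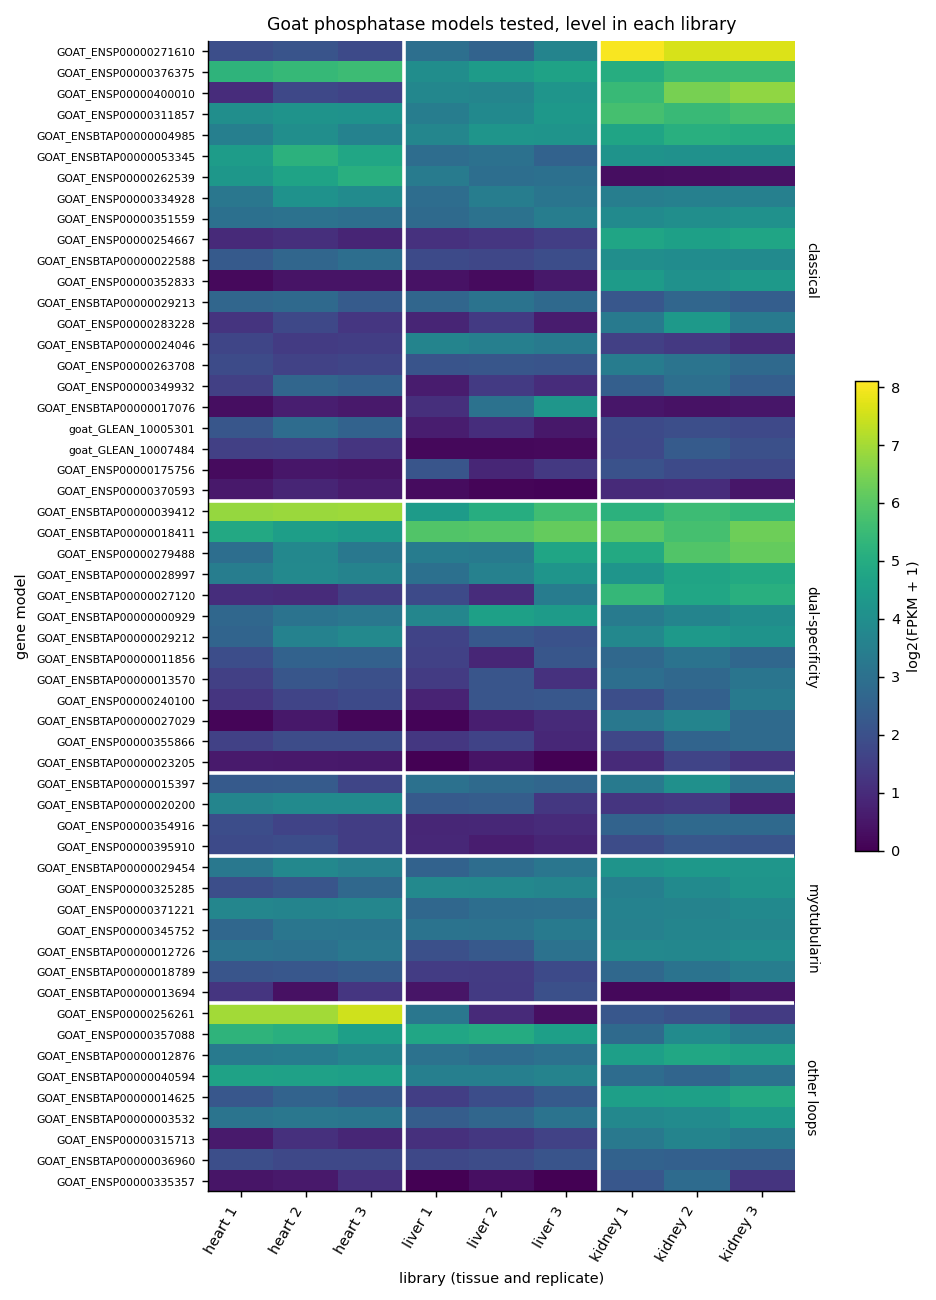
Level of 55 members that passed the filter, as log2(FPKM + 1) in colour, in 9 goat libraries (columns, 3 per tissue), with members in rows grouped by loop class and ordered by mean level (rows without a label have no class given). Within each class the brightest cells belong to a few members, and most rows are brightest in the 3 kidney columns.

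More members were higher in kidney than in either other tissue, and the same direction held for goat models as a whole. Against heart, 33 of 56 members (58.9%) were higher in kidney, where 45.3% of all models tested were, and 8 members (14.3%) were higher in heart, where 17.9% of all were. Against liver, 39 members (69.6%) were higher in kidney, beside 51.6% of all, and 7 members (12.5%) were higher in liver, beside 13.4% of all. Between heart and liver, 19 members (33.9%) were higher in heart, beside 29.6% of all, and 9 (16.1%) were higher in liver, beside 19.6% of all. The members' medians were 0.38 (heart minus liver), -0.82 (heart minus kidney) and -1.11 (liver minus kidney) on the log2 scale. In whole tissue, fewer cells of a type and less RNA per cell cannot be told apart.

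Median ratio scaling removed much of the excess in kidney, among members and among all models. On that scale 20 members (35.7%) were higher in kidney than in heart, beside 29.1% of all, and 12 (21.4%) were higher in heart, beside 29.0% of all. Liver and kidney differed in 24 members (42.9%) in favour of kidney, beside 25.3% of all, and in 12 (21.4%) in favour of liver, beside 26.6% of all. Heart and liver moved less, with 18 members higher in heart (32.1%, beside 27.0% of all) and 13 higher in liver (23.2%, beside 26.8% of all). The members' medians became 0.23, -0.26 and -0.46. Scaling to the same summed FPKM instead turned the balance between heart and liver, with 12 members higher in heart (beside 20.5% of all) and 17 higher in liver (beside 29.5% of all), and the balance over all models turned likewise.

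Members that exceeded both other tissues were counted separately and are called elevated. There were 29 in kidney (51.8%, beside 34.2% of all models tested), 7 in heart (12.5%, beside 14.5% of all) and 2 in liver (3.57%, beside 9.59% of all). On the median ratio scale there were 13 in kidney (23.2%, beside 16.6% of all), 9 in heart (16.1%, beside 19.5% of all) and 5 in liver (8.93%, beside 15.4% of all). All 13 members elevated in kidney on that scale were among the 29, and the 7 in heart and the 2 in liver were kept. No difference between members and all models was tested. The same-numbered samples of different tissues deviated together, and a fit with the replicate number as a block added 3 members in kidney, for 32 (beside 38.5% of all models), and 1 in liver, for 3 (beside 10.6% of all).

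**Figure D2:**
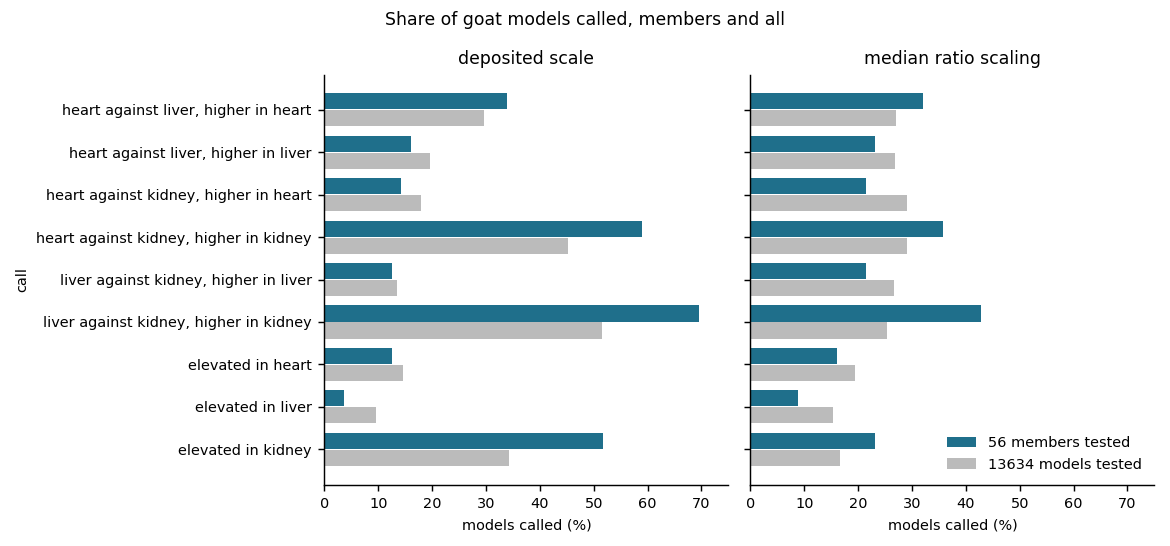
Share of models called in each direction, in percent, for the 56 members tested (blue) and all 13634 goat models tested (grey), on the deposited scale (left) and after median ratio scaling (right). Calls for kidney are the longest bars on the left for members and for all models, and both are shorter on the right.

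Among the 22 classical members tested, 11 were elevated in kidney, 3 in heart and 2 in liver, beside 34.2%, 14.5% and 9.59% of all models tested. After median ratio scaling these were 7, 4 and 2, beside 16.6%, 19.5% and 15.4% of all. GOAT_ENSP00000271610 had the highest mean level of all members over the 9 libraries. It lies on scaffold 299, 2698982 to 2828447, plus strand, in the deposited protein file, and encodes 1280 residues with a hydrophobic stretch ahead of 1 loop. GOAT_ENSP00000271610 read 2.88, 3.32 and 2.56 FPKM in heart, 6.84, 4.91 and 11.6 in liver and 257, 196 and 204 in kidney. Each kidney library was far above the 6 others, and the groups did not overlap. The kidney mean of 219 ± 33.3 FPKM (SD, n = 3) was 75 times that of heart and 28.2 times that of liver, with log2 fold changes of -5.81 ± 0.27 (SE, adjusted p = 2.65e-07) for heart minus kidney and -4.71 ± 0.27 (SE, adjusted p = 8.98e-07) for liver minus kidney. Liver was also above heart, at -1.1 ± 0.27 (SE, adjusted p = 0.0082) for heart minus liver. After median ratio scaling the differences were -5.16 (adjusted p = 7.48e-07) for heart minus kidney and -3.86 (adjusted p = 4.31e-06) for liver minus kidney.

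GOAT_ENSP00000400010, another classical member with a hydrophobic stretch (1124 residues), was graded over the 3 tissues. GOAT_ENSP00000400010 read 1.05, 2.35 and 2.1 FPKM in heart, 12.4, 11.8 and 17.5 in liver and 42.9, 86.1 and 106 in kidney. The 3 tissues did not overlap, with heart lowest and kidney highest, although the kidney libraries themselves ranged over more than 60 FPKM. The log2 fold changes were -2.41 ± 0.35 (SE, adjusted p = 0.000338) for heart minus liver, -4.75 ± 0.35 (SE, adjusted p = 3.72e-06) for heart minus kidney and -2.34 ± 0.35 (SE, adjusted p = 0.000333) for liver minus kidney. After median ratio scaling, kidney was apart at -4.14 (adjusted p = 4.38e-06) for heart minus kidney and -1.47 (adjusted p = 0.00238) for liver minus kidney.

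The tandem member GOAT_ENSP00000254667 (632 residues, 2 loops) and the single-loop member GOAT_ENSP00000352833 (806 residues) were low outside kidney. GOAT_ENSP00000254667 read 0.932, 1.11 and 0.785 FPKM in heart, 1.23, 1.41 and 1.84 in liver and 25.9, 23.1 and 26.3 in kidney. GOAT_ENSP00000352833 read 0.154, 0.344 and 0.347 FPKM in heart, 0.322, 0.173 and 0.442 in liver and 20.7, 16.3 and 19.3 in kidney. In both, the kidney libraries were close to each other and stood clear of all others. Heart minus kidney was -3.75 ± 0.17 (SE, adjusted p = 2.2e-07) for the tandem member and -3.94 ± 0.17 (SE, adjusted p = 1.56e-07) for the single-loop one, and liver minus kidney was -3.39 ± 0.17 (SE, adjusted p = 3.89e-07) and -3.91 ± 0.17 (SE, adjusted p = 1.7e-07). For neither did heart and liver differ at the threshold on the deposited scale, at -0.36 (adjusted p = 0.114) and -0.03 (adjusted p = 0.896), although after median ratio scaling the tandem member was lower in heart than in liver at -0.51 (adjusted p = 0.0235).

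GOAT_ENSP00000283228, with a hydrophobic stretch and 655 residues, had a kidney library apart from the other two. GOAT_ENSP00000283228 read 1.32, 2.38 and 1.44 FPKM in heart, 0.79, 1.59 and 0.533 in liver and 8.88, 19.9 and 8.8 in kidney. Kidney library 2 was the high one, and all 3 stood above heart and liver, at -2.24 ± 0.33 (SE, adjusted p = 0.000336) for heart minus kidney and -2.72 ± 0.33 (SE, adjusted p = 0.000104) for liver minus kidney. Of these 5 classical members, each stayed elevated in kidney after median ratio scaling, at -1.67 (adjusted p = 0.00213) for heart minus kidney in the last of them.

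Elevated in heart were 3 classical members. GOAT_ENSP00000262539 (912 residues) read 18.4, 24.8 and 33.5 FPKM in heart, 9.36, 6.68 and 6.98 in liver and 0.237, 0.272 and 0.31 in kidney. The order heart, liver, kidney held without overlap, and the kidney libraries were all below 0.5 FPKM. Heart was 3.33 times liver and 93.8 times kidney by mean, and the log2 fold changes were 1.59 ± 0.23 (SE, adjusted p = 0.000379) for heart minus liver, 4.34 ± 0.23 (SE, adjusted p = 5.87e-07) for heart minus kidney and 2.76 ± 0.23 (SE, adjusted p = 9.73e-06) for liver minus kidney.

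The other heart members of the class differed less from kidney. GOAT_ENSBTAP00000053345, a tandem protein of 1437 residues with a hydrophobic stretch, read 21.5, 35.8 and 26.5 FPKM in heart, 6.41, 7.17 and 4.81 in liver and 16.9, 16.1 and 15.7 in kidney. Heart was highest and liver lowest without overlap, at 2.0 ± 0.22 (SE, adjusted p = 5.97e-05) for heart minus liver and 0.72 ± 0.22 (SE, adjusted p = 0.0183) for heart minus kidney. The latter call was lost when single libraries were left out, with an adjusted p of 0.0745 without heart 2, 0.0507 without kidney 2 and 0.0517 without kidney 3. goat_GLEAN_10005301 (832 residues) read 3.44, 6.21 and 4.8 FPKM in heart, 0.576, 1.07 and 0.435 in liver and 2.52, 2.89 and 2.45 in kidney. Its heart libraries were again the highest, at 1.77 ± 0.22 (SE, adjusted p = 0.000131) for heart minus liver and 0.66 ± 0.22 (SE, adjusted p = 0.0259) for heart minus kidney, and the latter had an adjusted p of 0.0947 without heart 2, 0.0634 without heart 3, 0.0563 without kidney 1 and 0.0677 without kidney 3, and of 0.0653 with a pseudocount of 0.1. Scaled to the same summed FPKM, neither of the pair passed against kidney (adjusted p of 0.211 and 0.189), while median ratio scaling kept both calls, at 1.36 (adjusted p = 0.00114) and 1.15 (adjusted p = 0.00156).

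Elevated in liver were 2 classical members, both with a hydrophobic stretch. GOAT_ENSBTAP00000024046, a tandem protein of 1863 residues, read 2.25, 1.68 and 1.76 FPKM in heart, 11.6, 10.3 and 9.13 in liver and 1.87, 1.52 and 0.953 in kidney. The liver libraries were close to each other and did not overlap with heart or kidney, and the differences were -1.97 ± 0.2 (SE, adjusted p = 2.95e-05) for heart minus liver and 2.23 ± 0.2 (SE, adjusted p = 1.32e-05) for liver minus kidney. GOAT_ENSBTAP00000017076 (1412 residues) read 0.228, 0.608 and 0.463 FPKM in heart, 1.14, 7.28 and 18 in liver and 0.40, 0.304 and 0.393 in kidney. Its liver libraries spanned more than 10-fold, with the lowest of them still above all heart and kidney libraries. The differences of -2.29 ± 0.62 (SE, adjusted p = 0.0129) for heart minus liver and 2.35 ± 0.62 (SE, adjusted p = 0.00854) for liver minus kidney had larger errors than those of GOAT_ENSBTAP00000024046.

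The classical member with the next highest mean carried the SH2-type letters. GOAT_ENSP00000376375 (589 residues) read 37.3, 41.6 and 45.6 FPKM in heart, 14.6, 20.9 and 24.6 in liver and 31.7, 42.6 and 44 in kidney. Heart and kidney overlapped and liver was below both, at 1.04 ± 0.23 (SE, adjusted p = 0.0044) for heart minus liver, 0.08 ± 0.23 (SE, adjusted p = 0.783) for heart minus kidney and -0.96 ± 0.23 (SE, adjusted p = 0.00507) for liver minus kidney. After median ratio scaling it was elevated in heart, at 0.75 (adjusted p = 0.00208) for heart minus kidney, and liver and kidney no longer differed at the threshold, at -0.09 (adjusted p = 0.642). Scaled to the same summed FPKM, heart minus liver did not pass, with an adjusted p of 0.0575. The other member with these letters, GOAT_ENSBTAP00000033929, stayed below 0.1 FPKM in every library and was not tested.

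**Figure D3:**
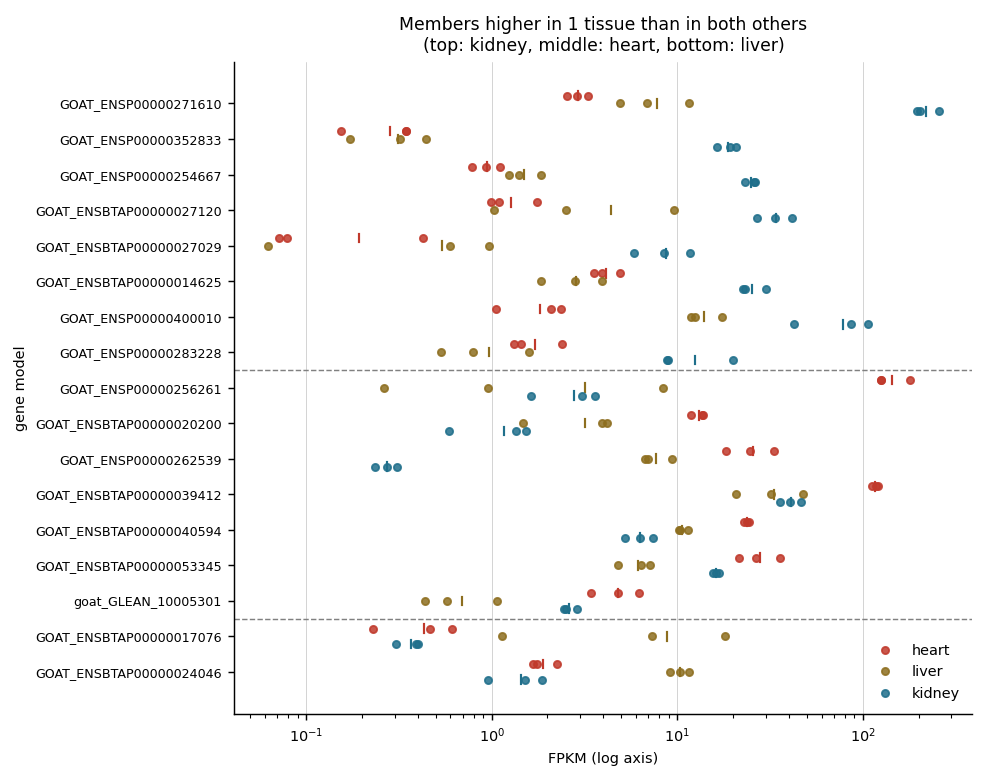
FPKM on a log axis for the members elevated in kidney (top, the 8 with the largest of their smaller log2 fold change), heart (middle, 7) and liver (bottom, 2). Each point is a library, coloured by tissue, and each short line is the mean of 3 libraries. In the kidney rows the blue points stand apart from red and brown, whereas GOAT_ENSBTAP00000017076 shows a wide spread among its liver points.

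Of the 13 dual-specificity members tested, 6 were elevated in kidney, 1 in heart and 0 in liver (beside 34.2%, 14.5% and 9.59% of all models), and median ratio scaling changed this to 2, 1 and 2 (beside 16.6%, 19.5% and 15.4% of all). Against liver, 9 were higher in kidney and 0 in liver on the deposited scale (beside 51.6% and 13.4% of all), but 4 and 3 after median ratio scaling (beside 25.3% and 26.6% of all). GOAT_ENSBTAP00000039412, a short protein of 148 residues on scaffold 516, 1487979 to 1492936, plus strand, was the most abundant of the class. GOAT_ENSBTAP00000039412 read 112, 118 and 121 FPKM in heart, 20.8, 31.9 and 47.6 in liver and 35.9, 46.4 and 40.5 in kidney. The heart libraries lay within 10 FPKM of each other and above all others, while liver and kidney overlapped. Heart was 3.5 times liver and 2.85 times kidney by mean, at 1.85 ± 0.27 (SE, adjusted p = 0.000404) for heart minus liver and 1.5 ± 0.27 (SE, adjusted p = 0.00116) for heart minus kidney. Liver minus kidney was -0.35 (adjusted p = 0.282) on the deposited scale and 0.52 (adjusted p = 0.0425) after median ratio scaling, with the opposite sign. Without liver 3, it was -0.64 (adjusted p = 0.0326) as deposited, a call in the other direction.

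GOAT_ENSBTAP00000018411 (322 residues) was lower in heart than elsewhere. GOAT_ENSBTAP00000018411 read 28.9, 22.3 and 19.5 FPKM in heart, 59, 61 and 71.4 in liver and 64.9, 51.3 and 78.1 in kidney. Liver and kidney overlapped, and both lay above all heart libraries, at -1.41 ± 0.22 (SE, adjusted p = 0.000551) for heart minus liver and -1.42 ± 0.22 (SE, adjusted p = 0.000433) for heart minus kidney. Liver minus kidney was -0.01 (adjusted p = 0.986) as deposited, and after median ratio scaling it was 0.88 (adjusted p = 0.0155), which made the member elevated in liver on that scale.

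Kidney was higher by a wide margin in 2 dual-specificity members. GOAT_ENSBTAP00000027120 (213 residues) read 1.09, 0.986 and 1.76 FPKM in heart, 2.51, 1.03 and 9.6 in liver and 41.5, 26.9 and 33.7 in kidney. Liver library 3 was the highest outside kidney, and all kidney libraries were above it, at -3.94 ± 0.51 (SE, adjusted p = 0.000139) for heart minus kidney and -3.03 ± 0.51 (SE, adjusted p = 0.000685) for liver minus kidney. GOAT_ENSBTAP00000027029 (389 residues) read 0.079, 0.428 and 0.0711 FPKM in heart, 0.0623, 0.593 and 0.97 in liver and 8.54, 11.7 and 5.89 in kidney. Heart and liver were below 1 FPKM in all 6 libraries, and kidney was higher at -2.99 ± 0.29 (SE, adjusted p = 2.22e-05) for heart minus kidney and -2.65 ± 0.29 (SE, adjusted p = 4.93e-05) for liver minus kidney. Both remained elevated in kidney after median ratio scaling.

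GOAT_ENSP00000279488 (394 residues) was also elevated in kidney as deposited, with unequal libraries. GOAT_ENSP00000279488 read 6.53, 12.8 and 8.47 FPKM in heart, 9.52, 8.97 and 26.2 in liver and 29.2, 59.1 and 72.6 in kidney. The lowest kidney library was only slightly above the highest liver library. Heart minus kidney was -2.36 ± 0.46 (SE, adjusted p = 0.00162) and liver minus kidney -1.85 ± 0.46 (SE, adjusted p = 0.00606), and the latter changed to -0.99 (adjusted p = 0.0521) after median ratio scaling, above the threshold. With the replicate number as a block, GOAT_ENSBTAP00000029212 was elevated in kidney, at -0.78 (adjusted p = 0.0086) for heart minus kidney against -0.78 (adjusted p = 0.0603) without it. GOAT_ENSP00000240100 was so too, at -1.02 (adjusted p = 0.00561) for heart minus kidney and -0.88 (adjusted p = 0.0111) for liver minus kidney, against -1.02 (adjusted p = 0.064) and -0.88 (adjusted p = 0.101). GOAT_ENSBTAP00000000929 became elevated in liver under the block, at 0.6 (adjusted p = 0.013) for liver minus kidney against 0.6 (adjusted p = 0.0805).

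GOAT_ENSBTAP00000020200 (231 residues), given without a class, was elevated in heart on both scales. GOAT_ENSBTAP00000020200 read 11.9, 13.8 and 13.7 FPKM in heart, 3.92, 4.21 and 1.48 in liver and 1.36, 1.54 and 0.591 in kidney. The heart libraries stood together above all others, at 1.82 ± 0.3 (SE, adjusted p = 0.000864) for heart minus liver and 2.73 ± 0.3 (SE, adjusted p = 5.7e-05) for heart minus kidney. The lowest liver library overlapped with kidney, and liver minus kidney, at 0.91 ± 0.3 (SE, adjusted p = 0.0247), had an adjusted p of 0.0791 without liver 1, 0.092 without liver 2 and 0.0923 without kidney 3. It had no match among the other goat proteins in the alignment at the limit used.

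GOAT_ENSP00000354916 (644 residues), also given without a class, was lowest in liver. GOAT_ENSP00000354916 read 2.8, 2.11 and 1.79 FPKM in heart, 0.814, 0.886 and 1.02 in liver and 4.99, 5.88 and 5.8 in kidney. The tissues did not overlap, at 0.75 ± 0.17 (SE, adjusted p = 0.00513) for heart minus liver, -1.03 ± 0.17 (SE, adjusted p = 0.000651) for heart minus kidney and -1.78 ± 0.17 (SE, adjusted p = 2.26e-05) for liver minus kidney. Heart minus kidney fell short of the threshold after median ratio scaling, at -0.48 (adjusted p = 0.0528). With the replicate number as a block, GOAT_ENSBTAP00000015397 joined the members elevated in kidney, at -0.66 (adjusted p = 0.025) for liver minus kidney against -0.66 (adjusted p = 0.0641) without it.

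The 7 myotubularin members were all tested, and none of their tissue differences exceeded 1.59 on the log2 scale as deposited. As deposited 4 of them were elevated in kidney, and 0 after median ratio scaling, beside 34.2% and 16.6% of all models. These counts rest on the exact loop letters. GOAT_ENSBTAP00000012876, of no named class, shared the tryptophan and the aspartate after it. Its nearest member was the myotubularin GOAT_ENSBTAP00000029454 (34.7% identity, 11.7% coverage). It stayed elevated in kidney after median ratio scaling and is not counted here. Against heart, 5 of the 7 myotubularin members were higher in kidney and 0 in heart as deposited (beside 45.3% and 17.9% of all), but 1 and 1 after median ratio scaling (beside 29.1% and 29.0% of all). GOAT_ENSBTAP00000029454, the highest (1197 residues, with the FYVE-type letters), read 8.47, 12.8 and 10.9 FPKM in heart, 4.89, 6.48 and 7.99 in liver and 17.3, 19 and 18.1 in kidney. Kidney lay above both other tissues without overlap, at -0.72 ± 0.22 (SE, adjusted p = 0.0151) for heart minus kidney and -1.38 ± 0.22 (SE, adjusted p = 0.000447) for liver minus kidney. Heart minus kidney had an adjusted p of 0.0567 without heart 1 and 0.0503 without kidney 2, and was -0.08 (adjusted p = 0.65) after median ratio scaling.

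GOAT_ENSP00000325285, the other member with these letters (1193 residues), differed from it in tissue pattern. GOAT_ENSP00000325285 read 2.88, 3.36 and 5.61 FPKM in heart, 12.9, 12.6 and 11.9 in liver and 10.4, 13.6 and 17.5 in kidney. Heart was below both other tissues without overlap, at -1.48 ± 0.25 (SE, adjusted p = 0.000918) for heart minus liver and -1.59 ± 0.25 (SE, adjusted p = 0.000474) for heart minus kidney, whereas liver and kidney overlapped, at -0.11 (adjusted p = 0.723). After median ratio scaling liver minus kidney was 0.73 (adjusted p = 0.0282), with the opposite sign, and the member counted as elevated in liver.

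A pair of neighbouring myotubularin members lay on scaffold 153 on the same strand, 13349 bp apart: GOAT_ENSBTAP00000012726 (633 residues) and GOAT_ENSBTAP00000018789 (625 residues). GOAT_ENSBTAP00000012726 read 7.4, 7.15 and 8.47 FPKM in heart, 2.97, 3.78 and 7.26 in liver and 12.7, 12.3 and 14.5 in kidney. GOAT_ENSBTAP00000018789 read 3.35, 3.59 and 4.1 FPKM in heart, 1.7, 1.68 and 2.54 in liver and 5.65, 7.39 and 9.87 in kidney. Both were highest in the 3 kidney libraries. Liver minus kidney was -1.39 ± 0.26 (SE, adjusted p = 0.00137) for the first and -1.52 ± 0.22 (SE, adjusted p = 0.000282) for the second. Heart minus kidney was -0.71 ± 0.26 (SE, adjusted p = 0.0389) for the first, with an adjusted p of 0.0916 without heart 1, 0.102 without heart 2, 0.0619 without heart 3, 0.0509 without liver 2, 0.0673 without kidney 1, 0.0717 without kidney 2 and 0.106 without kidney 3. It was -0.86 ± 0.22 (SE, adjusted p = 0.00735) for the second. After median ratio scaling neither passed for heart minus kidney, at -0.08 (adjusted p = 0.76) and -0.28 (adjusted p = 0.209). Heart minus liver for the first was 0.68 (adjusted p = 0.0561), and 0.68 (adjusted p = 0.0233) with the replicate number as a block.

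Among the 9 tested members whose loop fell in no named class, 6 were elevated in kidney, 2 in heart and 0 in liver, and after median ratio scaling 4, 2 and 0, beside 34.2%, 14.5% and 9.59% and then 16.6%, 19.5% and 15.4% of all models. GOAT_ENSP00000256261, of 138 residues on scaffold 1441, 431783 to 433301, minus strand, had the highest level of any member in heart. GOAT_ENSP00000256261 read 126, 125 and 181 FPKM in heart, 8.34, 0.952 and 0.264 in liver and 3.62, 3.06 and 1.63 in kidney. All heart libraries were above 100 FPKM and all others below 10, while the liver libraries ranged from 0.264 to 8.34. Heart was 45.2 times liver and 52 times kidney by mean, at 5.65 ± 0.63 (SE, adjusted p = 6.0e-05) for heart minus liver and 5.28 ± 0.63 (SE, adjusted p = 8.44e-05) for heart minus kidney, and was also elevated after median ratio scaling. Liver minus kidney was -0.36 (adjusted p = 0.631), and without liver library 1 its log2 fold change was -1.22 (adjusted p = 0.0102).

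GOAT_ENSBTAP00000040594, another short protein (166 residues), was elevated in heart too. GOAT_ENSBTAP00000040594 read 24.4, 23.9 and 22.9 FPKM in heart, 10.3, 10.2 and 11.4 in liver and 6.3, 5.25 and 7.37 in kidney. Libraries of a tissue were close to each other and the 3 tissues did not overlap, at 1.08 ± 0.17 (SE, adjusted p = 0.000588) for heart minus liver, 1.77 ± 0.17 (SE, adjusted p = 2.27e-05) for heart minus kidney and 0.68 ± 0.17 (SE, adjusted p = 0.00628) for liver minus kidney.

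Elevated in kidney were the related members GOAT_ENSBTAP00000014625 (1385 residues) and GOAT_ENSP00000315713 (991 residues). GOAT_ENSBTAP00000014625 read 3.57, 4.91 and 3.96 FPKM in heart, 1.86, 2.8 and 3.93 in liver and 22.7, 23.3 and 30.3 in kidney. GOAT_ENSP00000315713 read 0.487, 1.2 and 0.808 FPKM in heart, 1.2, 1.49 and 2.02 in liver and 8.7, 11.6 and 8.91 in kidney. In both the kidney libraries stood apart from the others, at -2.36 ± 0.24 (SE, adjusted p = 2.93e-05) and -2.56 ± 0.21 (SE, adjusted p = 8.43e-06) for heart minus kidney and -2.8 ± 0.24 (SE, adjusted p = 9.83e-06) and -2.06 ± 0.21 (SE, adjusted p = 3.53e-05) for liver minus kidney. The second was -0.5 (adjusted p = 0.0808) for heart minus liver, and -0.5 (adjusted p = 0.048) with the replicate number as a block.

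**Figure D4:**
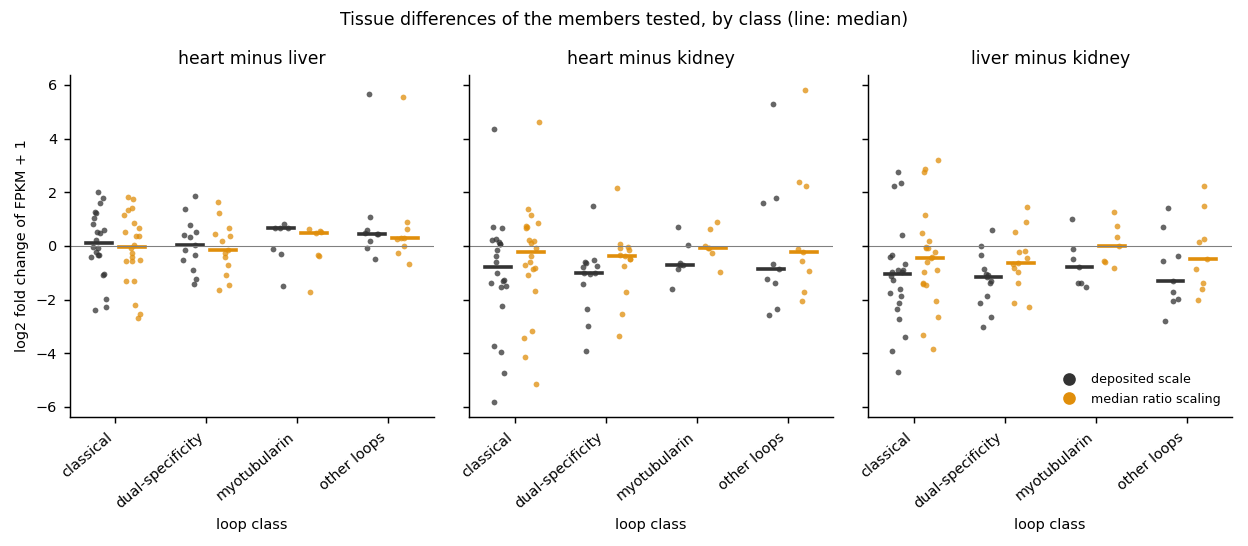
Log2 fold change of FPKM + 1 between tissues for the 51 members tested in 4 loop classes, on the deposited scale (black) and after median ratio scaling (orange). Points are members and lines are class medians. In both comparisons with kidney the median of each of these classes lies higher after scaling, which the scaling factors fix for any expressed model.

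The tissue means of 3 members lay closest together. GOAT_ENSBTAP00000029213, a classical member with a hydrophobic stretch (1323 residues), read 5.43, 5.81 and 4.05 FPKM in heart, 5.32, 7.4 and 5.81 in liver and 3.6, 5.44 and 4.41 in kidney. GOAT_ENSP00000334928 (2204 residues, also with such a stretch) read 8.19, 16.5 and 13.9 FPKM in heart, 6.43, 9.89 and 7.87 in liver and 10.05, 10.5 and 10.4 in kidney. GOAT_ENSP00000345752, a myotubularin (643 residues), read 5.56, 8.12 and 7.94 FPKM in heart, 7.46, 7.22 and 9.18 in liver and 10.7, 11.8 and 12 in kidney. Heart and liver overlapped in all 3. The first was called in no comparison as deposited, at -0.24 (adjusted p = 0.389), 0.16 (adjusted p = 0.542) and 0.39 (adjusted p = 0.128) for heart minus liver, heart minus kidney and liver minus kidney, but median ratio scaling put it lower in kidney than in heart at 0.71 (adjusted p = 0.0183) and than in liver at 1.14 (adjusted p = 0.00194). The second was not called either, at 0.58 (adjusted p = 0.0918) for heart minus liver, which became 0.58 (adjusted p = 0.0343) with the replicate number as a block, and it was higher in heart than in kidney after median ratio scaling, at 0.86 (adjusted p = 0.0077). The third was called higher in kidney as deposited, at -0.62 (adjusted p = 0.018) for heart minus kidney and -0.49 (adjusted p = 0.0486) for liver minus kidney. Median ratio scaling ended both calls, at -0.0046 (adjusted p = 0.985) for heart minus kidney and 0.33 (adjusted p = 0.0786), with the opposite sign, for liver minus kidney, and quantile normalization gave 0.064 (adjusted p = 0.716) and 0.23 (adjusted p = 0.181). Liver minus kidney also missed the threshold with a pseudocount of 0.1 (adjusted p = 0.0538), without a filter (adjusted p = 0.0502), with the filter of over 80% of libraries (adjusted p = 0.0506) and scaled to the same summed FPKM (adjusted p = 0.0761). Neither call was held by every set of libraries: heart minus kidney had an adjusted p of 0.0623 without heart 1, 0.056 without kidney 2 and 0.0544 without kidney 3, and liver minus kidney of 0.0626 without heart 2, 0.0657 without heart 3, 0.0996 without liver 1, 0.134 without liver 2, 0.0617 without kidney 1, 0.119 without kidney 2 and 0.118 without kidney 3. With GOAT_ENSP00000240100, the first and the second of these were the 3 tested members called in no comparison on the deposited scale.

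The 26 tested members not named by the rule had mean levels of 0.498 to 26.5 FPKM, and their largest tissue difference lay between 0.66 and 2.15 on the log2 scale. As deposited none of them was elevated in heart or liver, because the naming rule had already taken in every member elevated there. In kidney, 13 were elevated as deposited (beside 34.2% of all models), and 4 of the 13 stayed so after median ratio scaling (beside 16.6% of all). The rule had also taken out the leading kidney members, so these shares are not a like-for-like comparison. These 4 are given here after their values were seen. The classical member GOAT_ENSP00000311857 read 15.1, 17.1 and 16.4 FPKM in heart, 9.89, 13.4 and 19 in liver and 50.9, 43.9 and 53 in kidney, and the classical member GOAT_ENSBTAP00000022588 read 3.92, 5.41 and 6.55 FPKM in heart, 2.5, 2.33 and 2.75 in liver and 15.1, 14.4 and 13.8 in kidney. Among the members in no named class, GOAT_ENSBTAP00000012876 read 9.05, 9.63 and 11.5 FPKM in heart, 7.26, 6.23 and 7.05 in liver and 22.5, 27.4 and 24.3 in kidney. GOAT_ENSP00000335357, also in no named class, read 0.386, 0.46 and 1.16 FPKM in heart, 0, 0.246 and 0 in liver and 3.57, 6.09 and 1.34 in kidney. In all 4 the kidney libraries lay above the heart and liver libraries, at -1.54 (adjusted p = 0.000338), -1.31 (adjusted p = 0.000308), -1.22 (adjusted p = 0.000238) and -1.37 (adjusted p = 0.00844) for heart minus kidney in this order. The shortest member, GOAT_ENSP00000357088 (94 residues), was lower in kidney than in both other tissues. GOAT_ENSP00000357088 read 37.2, 33.5 and 22.7 FPKM in heart, 26.9, 30.4 and 22.7 in liver and 5.97, 14.1 and 9.47 in kidney. Heart and liver overlapped and kidney lay below both, at 1.61 (adjusted p = 0.00134) for heart minus kidney and 1.41 (adjusted p = 0.00276) for liver minus kidney.

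The 10 members that did not pass the filter were 3 classical, 2 dual-specificity, 4 of no named class and 1 given without a class. GOAT_ENSBTAP00000031268 and GOAT_ENSBTAP00000003800 were listed at 0 in all 9 libraries, which without counts gives no upper limit. They lay on scaffold 509 with another member of no named class, GOAT_ENSP00000348730, whose span overlapped that of GOAT_ENSBTAP00000031268 by 67 bp on the same strand. GOAT_ENSP00000348730 read 0.102, 0.644 and 4.28 FPKM in heart and was listed at 0 in the 6 liver and kidney libraries. A single heart library carried most of that signal, and reads of the overlapping pair may be split by the counting.

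Closest relatives among the members did not always share their leading tissue. By alignment, 21 pairs were each other's best match, and in 14 of them both members were tested, at 30.6% to 74.3% identity. The tissue with the highest mean was the same in 9 of these pairs and differed in 5. Kidney was highest for 45 of 66 members on the deposited scale, so a shared kidney maximum is frequent for any pair, and no test was made. The pair GOAT_ENSP00000262539 and GOAT_ENSP00000263708 (51.2% identical) had opposite orders: the first was highest in heart and lowest in kidney, as given above, and the second read 2.61, 2.05 and 2.23 FPKM in heart, 3.27, 3.47 and 3.26 in liver and 9.6, 7.74 and 5.86 in kidney. The second was elevated in kidney at -1.39 ± 0.19 (SE, adjusted p = 0.000231) for heart minus kidney and -0.99 ± 0.19 (SE, adjusted p = 0.0017) for liver minus kidney as deposited, and was not elevated after median ratio scaling.

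The liver member GOAT_ENSBTAP00000017076 and the heart member GOAT_ENSBTAP00000053345 formed another such pair (51.5% identical), and the latter was lowest in liver. Both were closer to the left-out copy GOAT_ENSBTAP00000053498-D2, at 57.1% and 60.9% identity. The other pairs with unequal leading tissue were GOAT_ENSBTAP00000013694 (liver) with GOAT_ENSP00000371221 (heart), GOAT_ENSBTAP00000000929 (liver) with GOAT_ENSP00000355866 (kidney), and GOAT_ENSP00000334928 (heart) with GOAT_ENSP00000400010 (kidney), by their highest means and not by a test. In contrast GOAT_ENSP00000254667 and GOAT_ENSP00000351559 (71.0% identical, both tandem) were highest in kidney, with unequal margins. GOAT_ENSP00000351559 read 6.92, 7.37 and 6.71 FPKM in heart, 5.95, 7.32 and 9.7 in liver and 13.8, 15.1 and 16.2 in kidney. Its heart and liver levels were several times those of GOAT_ENSP00000254667, and kidney was higher at -1.0 ± 0.19 (SE, adjusted p = 0.00165) for heart minus kidney and -0.91 ± 0.19 (SE, adjusted p = 0.0028) for liver minus kidney, without being elevated after median ratio scaling. No member had another goat model at 90% identity over 50 residues.

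**Figure D5:**
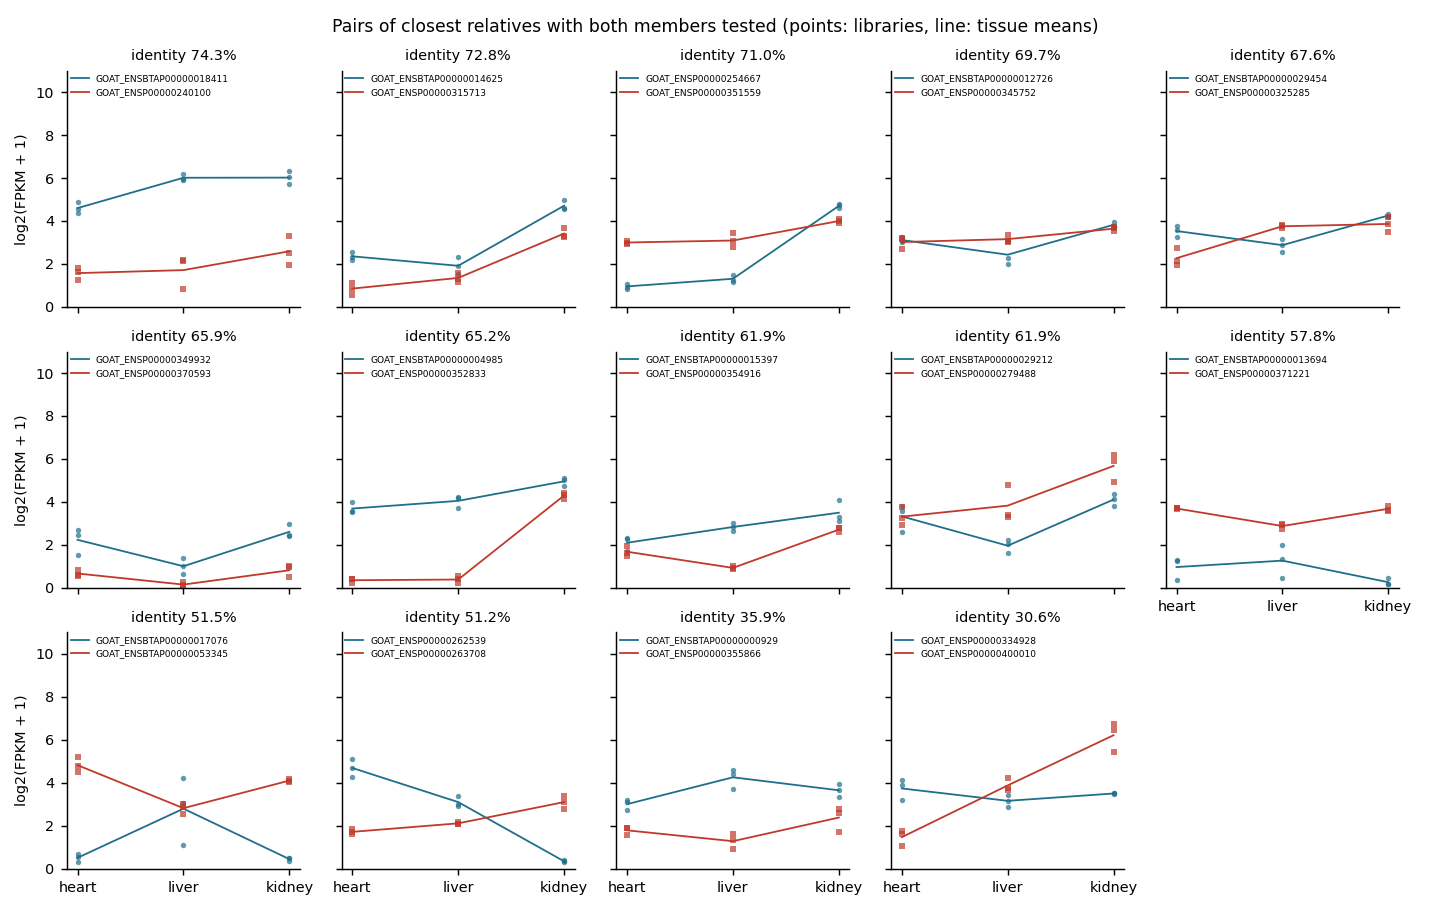
The 14 pairs of closest relatives with both members tested, ordered by protein identity: log2(FPKM + 1) in heart, liver and kidney, with a point for each library and a line through the tissue means. The lines of the pairs at 51.5% and 51.2% identity run in opposite directions, while both members of the pair at 72.8% are highest in kidney.

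Neighbouring models did not share a pattern in the case of the classical members GOAT_ENSP00000283228 and GOAT_ENSP00000334928, which lay 1767 bp apart on scaffold 920 on the same strand: the former was elevated in kidney, and the latter was called in no comparison as deposited but in those given above under median ratio scaling and the block, and without heart 1 at 0.85 (adjusted p = 0.0135) for heart minus liver.

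Other proteins of the same pathways were found by letters in the same protein file. Of 4 models with the loop of the CDC25 phosphatases, which activate cyclin-dependent kinases, 3 were tested, and all 3 were elevated in kidney on the deposited scale (beside 34.2% of all models) and 2 after median ratio scaling (beside 16.6% of all). GOAT_ENSP00000368918 read 0.662, 1.2 and 1.03 FPKM in heart, 0.656, 0.762 and 0.411 in liver and 19, 21.3 and 14.9 in kidney. Its kidney libraries stood clear of all others, at -3.3 ± 0.2 (SE, adjusted p = 1.11e-06) for heart minus kidney and -3.58 ± 0.2 (SE, adjusted p = 6.86e-07) for liver minus kidney. The low molecular weight phosphatase GOAT_ENSBTAP00000027314 read 21, 30.5 and 32.6 FPKM in heart, 23.7, 22.7 and 20.9 in liver and 25.4, 29.2 and 19.4 in kidney, and the tissues overlapped. No comparison was called for it as deposited, whereas it was lower in kidney than in heart and liver after median ratio scaling. Another model with that loop was listed at 0 throughout, and a single model with the loop of the PRL phosphatases was not tested.

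Among 53 tyrosine kinases, the enzymes that classical members oppose, 47 were tested. Against heart, 24 were higher in kidney and 6 in heart, beside 45.3% and 17.9% of all models, and against liver 31 were higher in kidney and 10 in liver, beside 51.6% and 13.4% of all. Median ratio scaling gave 20 and 9, beside 29.1% and 29.0% of all, and 23 and 11, beside 25.3% and 26.6% of all. Between heart and liver 10 were higher in heart and 15 in liver (beside 29.6% and 19.6% of all), and 22 were elevated in kidney, 9 in liver and 4 in heart on the deposited scale (beside 34.2%, 9.59% and 14.5% of all). After median ratio scaling 16 were elevated in kidney, 10 in liver and 6 in heart (beside 16.6%, 15.4% and 19.5% of all). Of 13 models with letters found in MAP kinases, 9 were tested. Whether each of them is a MAP kinase was not checked beyond these letters. Against heart, 2 were higher in kidney and 0 in heart as deposited, and 0 and 2 after median ratio scaling. For liver minus kidney the same counts were 4 higher in kidney and 1 in liver, and then 1 and 5. Over all models the same scaling took the shares higher in kidney from 45.3% to 29.1% against heart and from 51.6% to 25.3% against liver. It took the share higher in heart than in kidney from 17.9% to 29.0%. The share higher in liver than in kidney went from 13.4% to 26.6%. No difference between the list and all models was tested. GOAT_ENSBTAP00000013198 was the model of this list elevated in liver on the deposited scale, and was picked for naming after its values were seen. GOAT_ENSBTAP00000013198 read 0.296, 0.202 and 0 FPKM in heart, 32.4, 23 and 20.9 in liver and 0.559, 1.0 and 0.704 in kidney. The liver libraries were all above 20 FPKM and the rest at about 1 FPKM or lower, at -4.49 ± 0.21 (SE, adjusted p = 1.62e-07) for heart minus liver and 3.9 ± 0.21 (SE, adjusted p = 6.1e-07) for liver minus kidney.

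A further pair of goat models held the loop but carried a copy suffix, and were left out of all counts. GOAT_ENSBTAP00000053498-D2, of 1426 residues and with 2 loops, read 15.2 ± 1.44 FPKM in heart, 17.4 ± 0.945 in liver and 2.05 ± 0.307 in kidney (SD, n = 3). GOAT_ENSP00000272444-D2, of 354 residues, read 12.3 ± 3.61, 13.5 ± 7.18 and 29.7 ± 5.17 FPKM (SD, n = 3). The first was lowest in kidney and the second highest there.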

How the data were processed

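Messenger RNA was measured in 9 goat libraries, 3 each of heart, liver and kidney. Per the labels, libraries were strand-specific. According to the study's methods, reads were mapped with TopHat to the goat genome and quantified with Cufflinks (2.2.1 per the labels). The labels of the goat samples name UMD3.1, a cattle build, where the methods name a goat assembly; which one the values rest on was not settled, and scaffold positions are those of the deposited protein file. The authors deposited log2(FPKM + 1) per gene model, and FPKM was computed back by undoing the logarithm and the added 1. FPKM is relative, so very abundant transcripts lower all others. The last entry of the deposited protein file was cut off. Goat heart columns were matched to samples through the titles, and 0 sample columns were left over.

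The members, lists and tests were chosen with earlier results of these data known. Tissues were compared with limma 3.58.1 (R 4.3.3; lmFit, eBayes with trend, pseudocount 1, Benjamini-Hochberg over all 13634 models tested). Closest relatives came from blastp 2.17.0, and counts of members above 0.5 FPKM were compared with exact permutation tests (scipy 1.17.1). Named were the up to 8 leading members of each tissue by the smaller of their 2 log2 fold changes, the 5 highest by mean FPKM, in each class the highest and the 3 with the largest change, the 3 with the smallest range, and members at 0 in 1 library but above 5 FPKM in the other two. Others are named for a pair, a scaffold, a scale or a list, after their values were seen. Planned families, lists and tissue markers by gene symbol could not be applied, so tissue labels were not checked against marker genes. Replicate numbers come from the titles, which do not say whether the same number marks the same animal. The fit without a block and the permutation tests treated all libraries as independent, although the tissues share animals. Deviations of same-numbered libraries correlated at r = 0.146 to 0.472 in all 9 pairs, against -0.417 to 0.134 in 18 other pairs, and a fit with the number as a block was therefore made beside the one without it. Depth per library is unknown: between replicates, the most frequent log2 ratio of values below 0.3 FPKM was -0.15 to 0.20, a rough guide to relative depth. Alternatives were the pseudocount, the filter, 3 scalings, a minimum fold change, the block and leaving out each library. The results of 1 loop class as a group, and of 1 of its members, are not reported here.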

Additional observations from a re-analysis of the deposited data

How the results depend on the processing

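Counts of members called moved by over 1.5 times in these cases, given with the share of all models. With median ratio scaling, 20 members were higher in kidney than in heart (29.1% of all), 24 higher in kidney than in liver (25.3%), 12 higher in liver than in kidney (26.6%), 5 elevated in liver (15.4%) and 13 elevated in kidney (16.6%). With quantile normalization, 13 were higher in heart than in kidney (28.0%), 19 higher in kidney than in heart (30.0%), 25 higher in kidney than in liver (30.8%) and 13 elevated in kidney (19.4%). Scaled to the same summed FPKM, 12 were higher in heart than in liver (20.5%) and 17 higher in liver (29.5%). A minimum log2 fold change of 1 left 11 higher in heart than in liver (20.6%) and 16 elevated in kidney (22.1%). The filter of over 80% of libraries, under which fewer models were tested, left 4 higher in liver than in kidney (10.2%) and 1 elevated in liver (6.15%). No count moved by over 1.5 times with the replicate block or with 1 library left out, and these are given next. With the replicate block, in which libraries are paired by number, 21 members were higher in heart than in liver (32.7%) and 11 higher in liver (23.9%), 8 higher in heart than in kidney (19.4%) and 36 higher in kidney (49.9%), 8 higher in liver than in kidney (14.7%) and 41 higher in kidney (56.2%), and 7, 3 and 32 elevated in heart, liver and kidney (15.8%, 10.6% and 38.5%). It changed the calls given beside the results and no other call of the 30 named members. Leaving out 1 library at a time gave 15 to 21 and 8 to 10 for heart against liver (25.0% to 30.5% and 16.1% to 22.2% of all). For heart against kidney it gave 6 to 8 and 28 to 35 (16.1% to 18.7% and 38.9% to 47.4%). For liver against kidney it gave 5 to 7 and 36 to 40 (12.3% to 13.5% and 44.9% to 53.4%). Elevated in heart, liver and kidney were 5 to 7, 2 to 3 and 23 to 29 members (12.9% to 14.6%, 9.02% to 9.78% and 28.9% to 35.7%). The mean number of members per library was 57.0, 53.7 and 57.3 above 0.1 FPKM in heart, liver and kidney, and 47.7, 44.3 and 51.3 above 1 FPKM. Of all goat models, 59.9% to 60.7%, 60.6% to 60.7% and 64.1% to 65.9% exceeded 0.1 FPKM in heart, liver and kidney libraries. Above 1 FPKM these shares were 48.1% to 49.5%, 47.9% to 49.0% and 53.0% to 54.2%.

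Signs of differences called on at least 1 of the scales compared turned as follows. For liver minus kidney, median ratio scaling gave 0.88 for GOAT_ENSBTAP00000018411, 0.52 for GOAT_ENSBTAP00000039412, 0.73 for GOAT_ENSP00000325285 and 0.33 for GOAT_ENSP00000345752. For the last of these, quantile normalization gave 0.23, and 0.064 for heart minus kidney. In the other settings no named member had a called difference of the opposite sign. The cause of these changes was not tested. Of 90 differences of named members, 3 lost their call with a pseudocount of 0.1 and 2 without a filter, and of 810 with 1 library left out, 42 lost and 6 gained a call. Depth limits the lowest values, which may rest on single fragments. The 0.3 FPKM used above as a guide to depth was a set limit and not measured.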
